A study of Arabidopsis thaliana with 36 samples.

Results

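The nuclear genes of the light-harvesting antennae and of photosystem I were followed through an RNA-seq experiment on Arabidopsis thaliana seedlings. The set held 33 genes, listed by locus identifier: 6 LHCA genes of the photosystem I antenna, 15 LHCB genes of the photosystem II antenna and 12 PSA genes for nuclear-encoded subunits of photosystem I. All 33 were among the 20926 genes tested, of 33602 in the count table. The experiment set 3 genotypes, the uvr8-6 and hfr1-101 mutants and the wild type, against 4 light regimes: white light with far-red and UV-B added together (+FR+UVB), with UV-B added (+UVB), with far-red added to lower the red to far-red ratio (+FR), and white light alone (WL). Each of the 12 groups had 3 libraries, each from a pool of 30 whole seedlings grown on a plate of its own for 7 days, with light supplements given for the last 3 h. UVR8 is the UV-B photoreceptor and HFR1 a transcriptional cofactor that restrains shade responses. Each mutant was represented by 1 allele, carried throughout the plant. All 3 genotypes were of the Columbia (Col) accession.

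The members were, in the photosystem I antenna, LHCA1 (AT3G54890), LHCA2 (AT3G61470), LHCA3 (AT1G61520), LHCA4 (AT3G47470), LHCA5 (AT1G45474), LHCA6 (AT1G19150). In the major antenna of photosystem II they were LHCB1.1 (AT1G29920), LHCB1.2 (AT1G29910), LHCB1.3 (AT1G29930), LHCB1.4 (AT2G34430), LHCB1.5 (AT2G34420), LHCB2.1 (AT2G05100), LHCB2.2 (AT2G05070), LHCB2.3 (AT3G27690), LHCB3 (AT5G54270). In the minor antenna group they were LHCB4.1 (AT5G01530), LHCB4.2 (AT3G08940), LHCB4.3 (AT2G40100), LHCB5 (AT4G10340), LHCB6 (AT1G15820), LHCB7 (AT1G76570). The photosystem I subunit genes were PSAD1 (AT4G02770), PSAD2 (AT1G03130), PSAE1 (AT4G28750), PSAE2 (AT2G20260), PSAF (AT1G31330), PSAG (AT1G55670), PSAH1 (AT3G16140), PSAH2 (AT1G52230), PSAK (AT1G30380), PSAL (AT4G12800), PSAN (AT5G64040), PSAO (AT1G08380).

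LHC proteins bind most of the chlorophyll of the thylakoid membrane and pass excitation energy to the reaction centres. LHCB1, LHCB2 and LHCB3 form the major trimeric antenna of photosystem II, LHCB4, LHCB5 and LHCB6 are the minor antennae that link those trimers to the core, and LHCA1 to LHCA4 form the belt around photosystem I. PSA proteins include the docking subunits for ferredoxin on the stromal side (PsaD and PsaE), for plastocyanin on the lumenal side (PsaF and PsaN), and for the antennae (PsaG, PsaH, PsaK, PsaL and PsaO). In green seedlings these transcripts are among the most abundant nuclear messages and are known to respond to phytochromes, the circadian clock and retrograde signals from the plastid.

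Several LHC genes are near-identical copies, and the LHCB1 genes carry the clearest case of neighbours that behaved differently. On TAIR10.1, LHCB1.1, LHCB1.2 and LHCB1.3 lay together on chromosome 1 (chr1:10474656-10475969, chr1:10472280-10473502 and chr1:10477885-10479114), and their coding sequences were 95.6 to 96.4% identical. LHCB1.4 (chr2:14524607-14525918, plus strand) and LHCB1.5 (chr2:14522524-14523568, minus strand) stood back to back on chromosome 2, with 1038 bases between their starts and 91.4% identity in coding sequence. Of all 100-base windows of a transcript, the share also found in another gene was 1.51 to 4.44% in the 5 LHCB1 genes, 9.87% in LHCB2.1 and 12.4% in LHCB2.2, and 0 in the other 26 members. How reads from such windows were assigned was not given in the sources used here, so the split between copies is uncertain to that extent.

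The promoters of 4 members are shown because these genes frame the results: LHCB1.4 fell most under UV-B, LHCB1.5 is its divergent neighbour, LHCB2.3 carried 2 of the searched motifs, and LHCB7 rose most. Carrying 2 motifs was not particular to LHCB2.3, as LHCA4 and LHCB4.1 held the same pair, CACGTG and CCAATC. Of the 4 motifs searched, LHCA1, LHCB2.1, LHCB4.2, LHCB6, PSAF and PSAH2 also held more than 1. Each line gives the 250 bases upstream of the annotated gene start in RefSeq's TAIR10.1, read 5′ to 3′ on the gene's strand, with CACGTG (the G-box) and CCAATC, in either orientation, in capitals.
LHCB1.4, chr2:14524357-14524606, plus strand: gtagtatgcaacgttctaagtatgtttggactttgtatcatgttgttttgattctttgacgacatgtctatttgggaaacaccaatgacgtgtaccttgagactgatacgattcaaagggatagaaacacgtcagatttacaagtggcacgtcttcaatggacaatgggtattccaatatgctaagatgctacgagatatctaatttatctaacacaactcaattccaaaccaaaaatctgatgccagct
LHCB1.5, chr2:14523569-14523818, minus strand: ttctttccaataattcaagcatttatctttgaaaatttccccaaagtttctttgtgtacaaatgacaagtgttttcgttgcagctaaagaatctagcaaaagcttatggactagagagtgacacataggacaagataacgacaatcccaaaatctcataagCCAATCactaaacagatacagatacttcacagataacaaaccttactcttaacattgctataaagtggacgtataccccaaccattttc
LHCB2.3, chr3:10255656-10255905, plus strand: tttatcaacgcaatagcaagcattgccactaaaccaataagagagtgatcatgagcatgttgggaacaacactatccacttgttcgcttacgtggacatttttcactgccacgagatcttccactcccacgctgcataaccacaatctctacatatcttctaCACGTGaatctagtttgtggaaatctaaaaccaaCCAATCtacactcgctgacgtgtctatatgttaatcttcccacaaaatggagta
LHCB7, chr1:28728748-28728997, plus strand: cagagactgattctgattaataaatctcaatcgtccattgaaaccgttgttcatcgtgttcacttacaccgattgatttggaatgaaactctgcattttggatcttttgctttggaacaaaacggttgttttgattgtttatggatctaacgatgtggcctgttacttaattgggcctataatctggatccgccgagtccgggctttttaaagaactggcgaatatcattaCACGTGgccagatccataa
LHCB1.4 had neither motif in this window, LHCB1.5 had 1 CCAATC, LHCB2.3 had a G-box and a CCAATC, and LHCB7 had a G-box 19 bases before its start, in a window that overlaps the neighbouring gene AT1G76560. Over all 33 members, 14 windows overlapped another gene. Searched on both strands, 7 windows (21.2%) held CACGTG, against 6.49% of the windows of 27443 protein-coding genes and 7.37% of the 20254 that were tested. CCAATC was in 10 windows (30.3%), all of LHCA or LHCB genes and 0 of the 12 PSA genes, against 10.2% of all protein-coding genes. GATAAG (the I-box) was in 8 windows (24.2% against 12.3%), and AATATCT (the core of the evening element) in 4 (12.1% against 10%). None of the 4 motifs is contained in another, and a match describes letters and not a binding site.

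Library totals ran from 9749710 to 21175260 counts, with a median of 18488977, and levels are given as CPM (counts scaled to a common library size with TMM factors). The UVR8 transcript was at 12.2 to 17.0 CPM in the 12 uvr8 libraries and at 65.6 CPM or more in the other 24. The HFR1 transcript did not check the hfr1 label: it averaged 109 ± 10.9 CPM in hfr1 and 82.0 ± 5.72 CPM in wild type under +FR (SD, n = 3 each), and 140 ± 14.0 CPM in hfr1 and 35.4 ± 1.09 CPM in wild type under +FR+UVB, so hfr1 below means the libraries so labelled. Replicate 1 of hfr1 under +UVB stood apart in the genes of interest here: the 33 members took 3.07% of its counts, against 5.51 and 5.16% in its sister libraries. The members' edgeR counts of UV-B in hfr1 that use it are given with and without it. Marker values and counts over all genes are given only with it. Replicate 1 of hfr1 under WL was the shallowest library. Because whole seedlings were sampled, fewer green cells and less RNA per cell cannot be told apart. The summed level of 7 root marker genes, most of it from PYK10, was 3769.5 to 4825 CPM under +UVB and 4679 to 4851 CPM under WL in wild type. It was lowest in replicate 3 of uvr8 under +FR+UVB and under +FR (1750.45 and 1764 CPM, against 2708 to 3401 CPM in the other libraries of those groups), and its part in the results was not tested. By the adjusted p, with values as log2 fold changes, markers also moved in the comparisons below, and their part was not tested either. In +UVB against WL the root markers IRT1 (-1.54), LRX1 (-1.13) and PRP3 (-1.11) and the shoot epidermis marker ATML1 (-0.80) were lower in hfr1, none of the 10 markers passed in uvr8, and IRT1 (-1.60), CER1 (-1.14) and ATML1 (-0.51) were lower in wild type. In +FR+UVB against +FR the root marker COBL9 (-1.14), CER1 (-1.75) and ATML1 (-0.31) were lower in hfr1, and CER1 (-1.06), PDF1 (-0.91) and ATML1 (-0.60) lower and CASP1 (0.57) higher in wild type. In +FR against WL, ATML1 was lower in hfr1 (-0.48), and in uvr8 PYK10 was lower (-0.72) and PDF1 higher (0.60). Between uvr8 and wild type PDF1 was higher in uvr8 under +FR (0.99), +UVB (0.94) and +FR+UVB (1.27), ATML1 under +UVB (0.62) and +FR+UVB (0.57), and CER1 under +FR+UVB (1.14), where CASP1 (-0.92) and PYK10 (-0.49) were lower. P-values measure the spread between pools from separate plates.

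Levels per length differed widely among the members in wild type under WL. LHCB1.3 was the highest at 12470.1 CPM per kilobase of exon, followed by LHCB1.5 at 7057, LHCA4 at 3714, LHCB3 at 3616 and LHCB5 at 3315. LHCB1.4 was at 2321 CPM per kilobase, in the middle of the order. Below 600 CPM per kilobase were 4 members: LHCA5 at 145, LHCA6 at 119, LHCB4.3 at 27.8 and LHCB7 at 13.6. Those 4 are the rarely expressed paralogues of the family; LHCA5 is known as a minor photosystem I antenna protein needed for the NDH supercomplex together with LHCA6. The 29 members at or above 600 CPM per kilobase included all 12 PSA genes, among which PSAG had the highest level per length and PSAL the highest CPM.

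**Figure D1:**
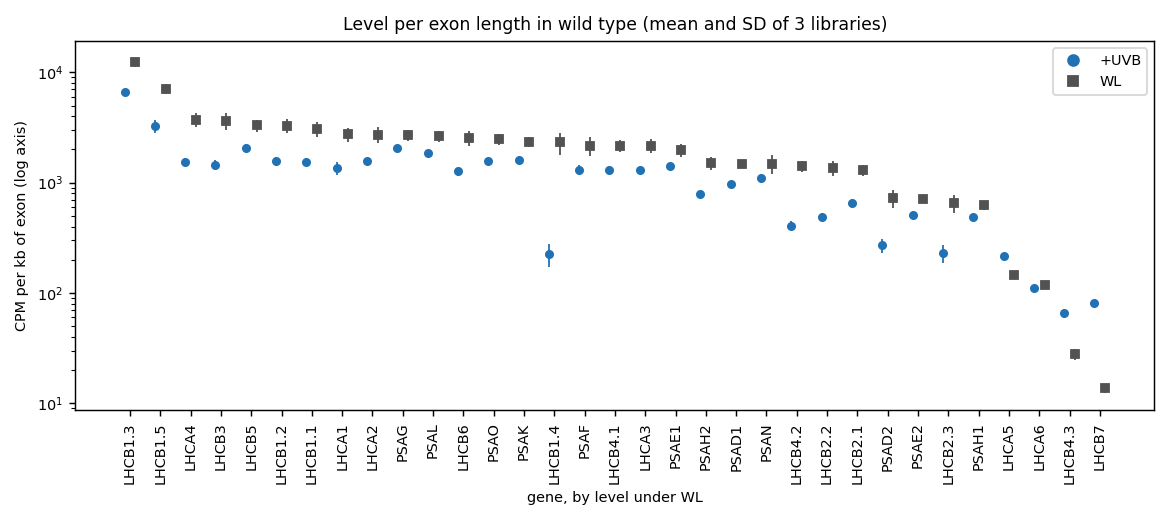
Level per kilobase of exon of each of the 33 genes in wild type under +UVB and under WL (log axis), ordered by level under WL; points are means of 3 libraries and bars are ± 1 SD. LHCB1.3 is highest under WL at 12470.1 CPM per kilobase and LHCB7 lowest at 13.6, and the 4 genes at the low end include the 3 that are higher under +UVB by the adjusted p.

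UV-B for 3 h lowered most antenna transcripts of wild-type seedlings and raised a few low-level paralogues. By the quasi-likelihood F-test of edgeR, with p-values adjusted over all 20926 genes after Benjamini and Hochberg (called: adjusted p under 0.05 and more than 2-fold), 11 members fell and 2 rose in +UVB against WL. Over all genes tested, 6.79% fell and 6.68% rose by the same rule. Without the fold minimum 28 members fell and 3 rose, against 24.7% and 24.5% of all genes. The median log2 fold change of the members was -0.74, beside -0.05 over all genes. Together the members took 3.97, 4.63 and 4.39% of all counts in the +UVB libraries, against 9.85, 10.1 and 7.92% in the WL libraries, with no overlap.

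LHCB1.4 fell furthest. Its level was 216, 319 and 344 CPM in the +UVB libraries, against 3347, 3534 and 2255 CPM in the WL libraries. The groups did not overlap, and the log2 fold change was -3.38 ± 0.36 (SE; 10.4-fold lower, adjusted p = 8.7e-09). Its neighbour LHCB1.5 was at 2955, 3444 and 3818 CPM under +UVB, against 7508, 8059 and 6557 CPM under WL, a log2 fold change of -1.11 ± 0.17 (adjusted p = 2.8e-06). LHCB1.3, the most abundant member, had 7737, 8202 and 8520.0 CPM under +UVB, against 16231, 16122 and 13662 CPM under WL, a change of -0.91 ± 0.17 that passed the adjusted p (5.6e-05) but not the fold minimum. LHCB1.2 (-1.08) and LHCB1.1 (-1.0045) were just past that minimum, and LHCB1.1, LHCB1.2 and LHCB1.3 summed as 1 feature fell by 0.94 on the log2 scale (adjusted p = 4.9e-05). The unequal falls changed the make-up of the LHCB1 message: LHCB1.4 gave 1.49, 1.97 and 2.06% of the counts of the 5 genes under +UVB, against 9.30, 9.72 and 7.73% under WL. That share stands within libraries and so does not depend on how libraries were scaled.

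In the rest of the major antenna, LHCB2.3 fell to 269, 394 and 344 CPM under +UVB, against 1039, 1084 and 754 CPM under WL (log2 fold change -1.51 ± 0.23, adjusted p = 4.0e-06). LHCB2.2 was at 504, 586 and 591 CPM, against 1690.2, 1688 and 1265 CPM under WL (-1.47 ± 0.17), and LHCB3, the most abundant gene of this group per length, at 1649, 1996 and 1781 CPM, against 4964, 4924 and 3587 CPM (-1.31 ± 0.18). LHCB2.1 (-0.99, adjusted p = 2.7e-06) stayed just short of 2-fold. So 3 of the 4 genes were called and all 4 passed the adjusted p, each with libraries that did not overlap between the light regimes. Over the whole set 29 members lay wholly below WL and 3 wholly above it, against 30.2% and 29.5% of all genes. LHCB2.1 and LHCB2.2 share windows, and the 3 LHCB2 genes summed fell by 1.24 on the log2 scale.

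The minor antenna split by paralogue. LHCB4.2, one of 3 genes for CP29, fell to 504, 605 and 563 CPM under +UVB, against 2026, 2113 and 1678 CPM under WL (log2 fold change -1.80 ± 0.16, adjusted p = 4.6e-10). Its paralogue LHCB4.3 rose to 96.7, 103 and 86 CPM, against 37, 37.9 and 46 CPM (1.24 ± 0.23, adjusted p = 4.5e-05), and LHCB4.1 changed by -0.71 ± 0.13, short of 2-fold. LHCB7, a rarely expressed LHCB gene, rose most of all: it was at 95.8, 91.4 and 105 CPM under +UVB, against 14.8, 17.5 and 17.3 CPM under WL (2.56 ± 0.11, 5.88-fold higher, adjusted p = 4.5e-17). LHCB6, which encodes CP24, was just short of the fold minimum (-0.9987), and LHCB5, which encodes CP26 and was the most abundant of this group, had 2641, 3079.7 and 2915 CPM under +UVB, against 4902, 4965 and 3945 CPM under WL (-0.68 ± 0.14).

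Among the photosystem I antenna genes LHCA4 and LHCA1 were called. LHCA4, whose protein carries the most red-shifted chlorophylls of the complex, was at 1818, 2136 and 2064 CPM under +UVB, against 5207, 5224 and 3997 CPM under WL (-1.26 ± 0.17, adjusted p = 5.8e-07). LHCA1, its dimer partner, fell by 1.03 on the log2 scale. LHCA2 (-0.79) and LHCA3 (-0.72) fell by less than 2-fold. LHCA5 rose, with 220.3, 230.0 and 238 CPM under +UVB, against 155, 160.0 and 151 CPM under WL (0.56 ± 0.10, adjusted p = 2.7e-05), and LHCA6 did not pass the test (-0.11, adjusted p = 0.44).

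The photosystem I subunit genes had smaller estimates. Of the 12, 1 was called, 11 passed the adjusted p without the fold minimum, all of them lower, and the median log2 fold change was -0.53, beside -1.08 in LHCB1 and -0.76 in LHCA. The called gene was PSAD2, with 219.7, 291 and 262 CPM under +UVB, against 746, 790.4 and 547 CPM under WL (-1.43 ± 0.20, adjusted p = 1.1e-06). Its paralogue PSAD1, 86.3% identical in coding sequence, changed by -0.62 ± 0.13. PSAH2 fell by 0.94 on the log2 scale and its paralogue PSAH1 by 0.36. PSAL, the most abundant by CPM, had 2035, 2166 and 2192 CPM, against 3164, 3221 and 2589 CPM under WL (-0.49 ± 0.15). Other falls that passed were those of PSAF (-0.74), PSAO (-0.66), PSAK (-0.57), PSAE2 (-0.49), PSAE1 (-0.48) and PSAG (-0.40). PSAN was the gene that did not pass (-0.44, adjusted p = 0.15), and its libraries ran from 1006 to 1209.9 CPM under +UVB and from 1165 to 1690.2 CPM under WL, which overlapped.

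Read against the levels per length, 28 of the 29 members at or above 600 CPM per kilobase under WL were lower under +UVB by the adjusted p, and the 3 that rose were among the 4 below it. These are counts of the genes described above and not a separate test. TMM scaling bears on the size of the falls: on plain library sizes the median of all genes moved by -0.18 (log2), all genes called were 1028 up and 2094 down in place of 1398 up and 1421 down, and the members' median lay 0.69 below that of all genes.

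**Figure D2:**
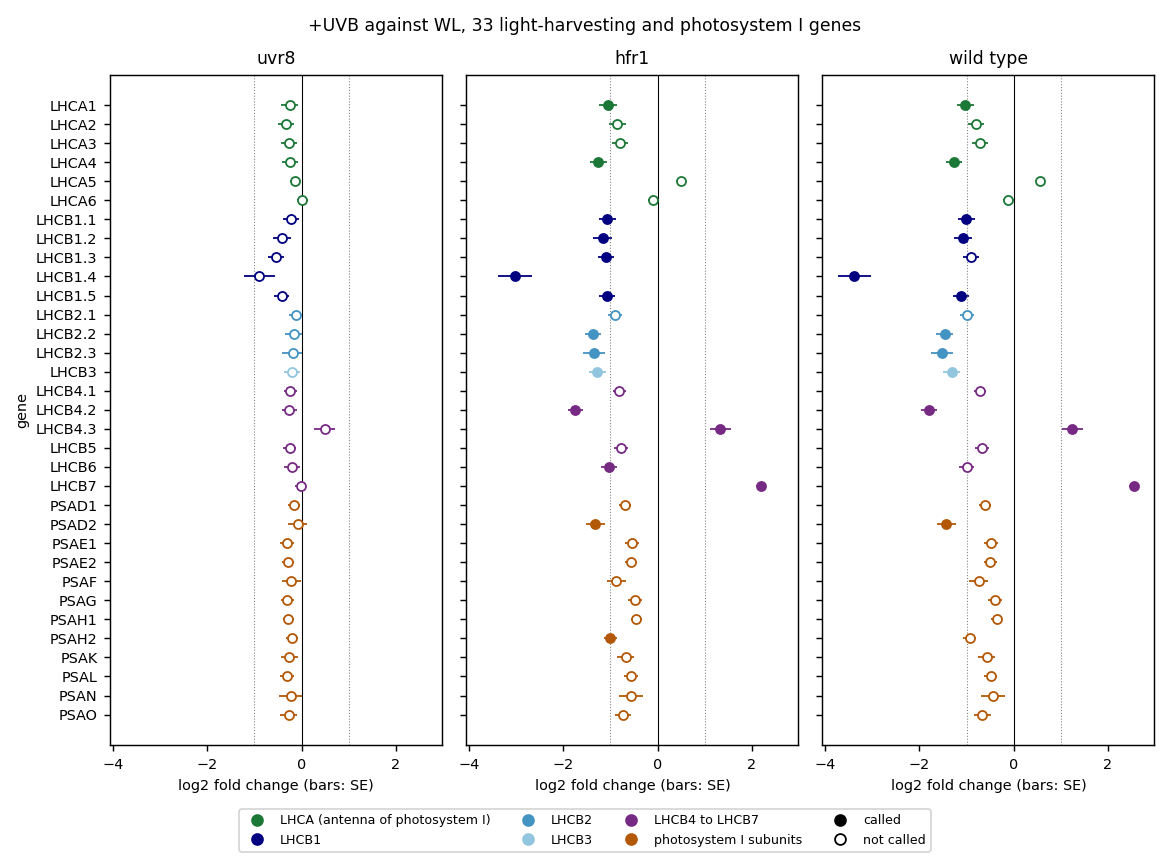
Log2 fold change of +UVB against WL for each of the 33 genes in uvr8, hfr1 and wild type; points are edgeR estimates coloured by family (filled where called), bars are ± 1 SE and dotted lines mark 2-fold. LHCB7 sits at -0.02 in uvr8, against 2.56 in wild type, and LHCB1.4 at -0.90, against -3.38.

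Under low R:FR alone no member passed the 2-fold rule in 3 h. In +FR against WL, 0 wild-type members were called by edgeR at more than 2-fold (1.94% of all genes), 11 had an unadjusted p under 0.05, and DESeq2 also called 0. Without the fold minimum PSAH2 alone was lower, with 779, 835 and 756 CPM under +FR, against 1146, 1134 and 892 CPM under WL (-0.42 ± 0.13, adjusted p = 0.042), where 4.15% of all genes were lower. The estimates leaned one way: 32 of 33 were negative, with a median of -0.30, and in 18 members the +FR libraries all lay below the WL libraries, as in 15.7% of all genes. LHCB1.4 had 2295, 1992 and 2444 CPM under +FR, against 3347, 3534 and 2255 CPM under WL (-0.44 ± 0.33, adjusted p = 0.47), and the groups overlapped. For LHCB7 the estimate was 0.03 ± 0.11.

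With low R:FR as the background, UV-B again lowered antenna transcripts and raised LHCB7 and LHCB4.3. In +FR+UVB against +FR, 5 wild-type members fell and 2 rose (8.53% and 8.27% of all genes), or 16 and 3 without the fold minimum (27.5% and 26.9%), and the median was -0.34. All 5 that fell and both that rose were also called in +UVB against WL. LHCB1.4 was at 388, 573 and 379.7 CPM under +FR+UVB, against 2295, 1992 and 2444 CPM under +FR (-2.33 ± 0.34, adjusted p = 1.7e-06). LHCB4.2 was at 443, 505 and 482 CPM, against 1558, 1498 and 1406 CPM (-1.64 ± 0.16, adjusted p = 1.6e-09). LHCB2.2 (-1.24 ± 0.17), PSAD2 (-1.2 ± 0.20) and LHCB1.5 (-1.10 ± 0.17) completed the falls, and summed with its copies LHCB2 fell by 0.97, short of 2-fold.

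Of the genes that rose, LHCB7 was at 122, 106 and 114 CPM under +FR+UVB, against 18, 16.7 and 15.9 CPM under +FR (2.76 ± 0.11, 6.76-fold higher). LHCB4.3 was at 111, 61.6 and 101 CPM, against 40.6, 37.5 and 26.8 CPM (1.39 ± 0.23), with the groups apart but replicate 2 under +FR+UVB well below its sisters. LHCA5 (0.83 ± 0.10) passed the adjusted p. Of the PSA genes 3 of 12 passed it, PSAD2, PSAH2 (-0.44) and PSAD1 (-0.31), all lower. That is close to the share of all genes lower by this rule, given above with this comparison. On plain library sizes the median of all genes moved by -0.27, 11 members were called, 28 were lower and 3 higher without the fold minimum, and the members' median was -0.61.

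The test of the difference between both UV-B effects did not separate them gene by gene. The UV-B effect under +FR minus that under WL was positive in all 33 wild-type members, with a median of 0.35. Yet edgeR called 0 of them by the adjusted p alone, with no fold minimum (1.17% of all genes). At an unadjusted p under 0.05 there were 5, and DESeq2 called 0. For LHCB1.4 the difference was 1.05 ± 0.46 (adjusted p = 0.36). This comparison was added after the data had been seen. Far-red on top of UV-B changed nothing that passed: in +FR+UVB against +UVB edgeR called 0 members in wild type (0.602% of all genes), 2 had an unadjusted p under 0.05, DESeq2 called 0, and the median was 0.09. In LHCB1.4 the libraries were at 379.7 to 573 CPM under +FR+UVB and at 216 to 344 CPM under +UVB, and the ranges did not overlap. It was 1 of 9 members whose +FR+UVB libraries all lay above the +UVB libraries, and 0 members lay wholly below. Over all genes those shares were 14.5% and 12.8%.

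**Figure D3:**
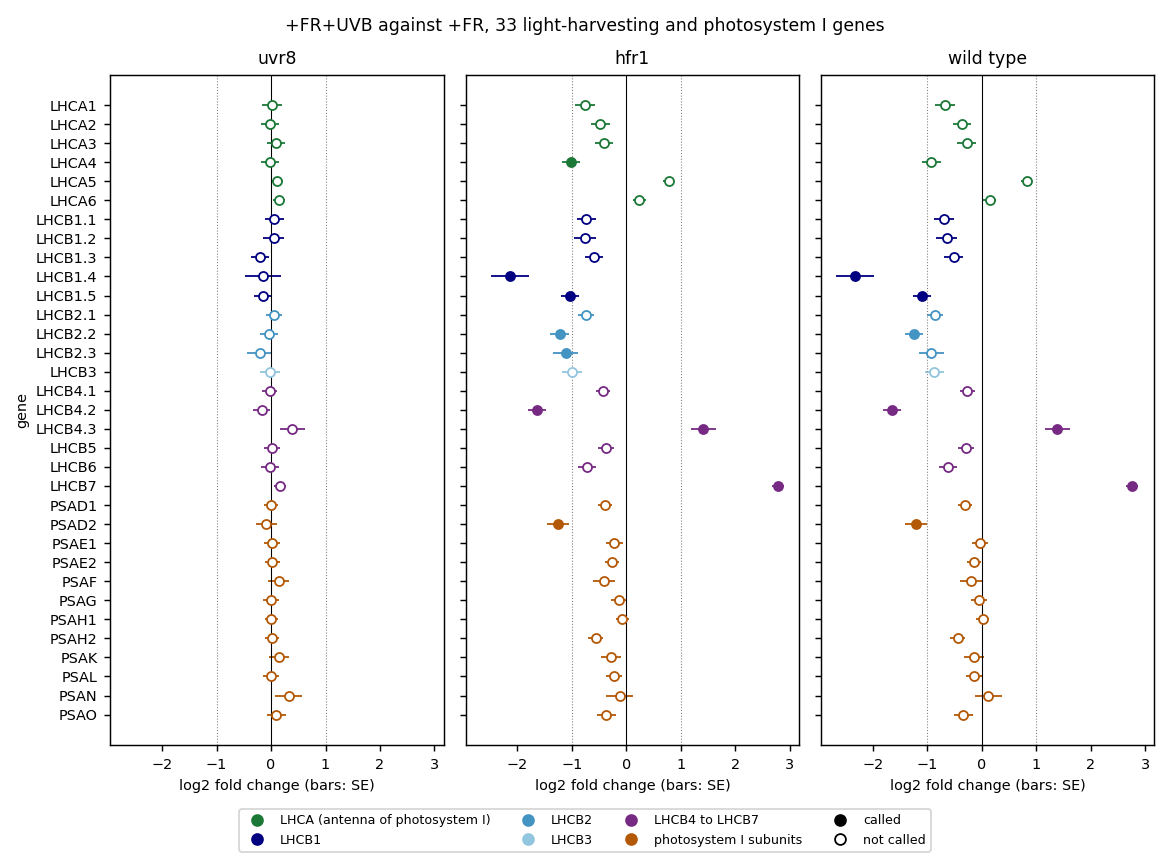
Log2 fold change of +FR+UVB against +FR for each of the 33 genes in uvr8, hfr1 and wild type; points are edgeR estimates coloured by family (filled where called), bars are ± 1 SE and dotted lines mark 2-fold. LHCB1.4 sits at -0.15 in uvr8 and -2.14 in hfr1, against -2.33 in wild type.

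In seedlings lacking UVR8 no member passed the test for a response to UV-B. In uvr8 under +UVB against WL, edgeR called 0 members (1.03% of all genes), 9 had an unadjusted p under 0.05, and DESeq2 called 0. Without the fold minimum LHCB1.3 had an adjusted p of 0.075 (-0.55), or 0.046 (-0.50) on plain library sizes, where it alone passed. LHCB7 was at 15, 15.3 and 18.3 CPM under +UVB, against 14.5, 18.2 and 16.7 CPM under WL, a change of -0.02 ± 0.11. LHCB1.4 was at 1089.6, 1701 and 1589 CPM, against 3040.1, 2891 and 2257 CPM under WL, a change of -0.90 ± 0.33 that did not pass (adjusted p = 0.14) although the groups did not overlap. The estimates were not centred on 0: 31 of 33 were negative with a median of -0.25, and in 20 members every +UVB library lay below every WL library, as in 9.72% of all genes. Low R:FR gave a like picture in uvr8, with 0 called by edgeR in +FR against WL (2.04%), 8 with an unadjusted p under 0.05, 0 by DESeq2, a median of -0.29, and 23 members whose +FR libraries all lay below the WL libraries (10.3% of all genes). In +FR+UVB against +FR the median was 0.01, with 0 called by edgeR (0.855%), 0 with an unadjusted p under 0.05 and 0 by DESeq2. The same 3 counts were 0 in +FR+UVB against +UVB (1.56% of all genes called by edgeR), with a median of 0.00.

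Members past the thresholds between uvr8 and wild type were found in the regimes with UV-B. In white light edgeR called 0 members between uvr8 and wild type (0.105% of all genes; 1 with an unadjusted p under 0.05, 0 by DESeq2), and likewise 0 under +FR (0.124%; 2 with an unadjusted p under 0.05, 0 by DESeq2). In 14 members every uvr8 library under +FR nevertheless lay below every wild-type library, as in 8.21% of all genes, and the median was -0.14. Under +UVB 5 members were higher and 1 lower in uvr8 than in wild type (7.08% and 5.91% of all genes), or 14 and 2 without the fold minimum (24.7% and 23.8%), and the median was 0.35. LHCB1.4 was at 1089.6, 1701 and 1589 CPM in uvr8, against 216, 319 and 344 CPM in wild type (2.32 ± 0.34, adjusted p = 2.7e-06). LHCB4.2 was at 1581, 1550.1 and 1411 CPM in uvr8, against 504, 605 and 563 CPM in wild type (1.44 ± 0.16), and PSAD2 at 657, 584 and 549 CPM, against 219.7, 291 and 262 CPM (1.21 ± 0.20). LHCB7 was lower in uvr8 (-2.58 ± 0.11), at 15, 15.3 and 18.3 CPM, against 95.8, 91.4 and 105 CPM in wild type. In 23 members every uvr8 library lay above every wild-type library and in 2 below, against 26.8% and 26.7% of all genes. LHCB1.4 gave 5.20, 7.62 and 7.43% of the LHCB1 counts in uvr8 under +UVB, against 1.49, 1.97 and 2.06% in wild type.

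Under +FR+UVB 4 members were higher and 1 lower in uvr8 (6.4% and 6.04% of all genes), or 11 and 2 without the fold minimum (23.7% and 23.3%). They were LHCB1.4 (1.82 ± 0.34), LHCB4.2 (1.44 ± 0.16), PSAD2 (1.13 ± 0.20), LHCB2.2 (1.05 ± 0.17) and, lower, LHCB7 (-2.64 ± 0.11). Without replicate 2 of uvr8 under +FR+UVB 3 members were called. LHCB1.4 was at 1511, 2108 and 1114 CPM in uvr8, against 388, 573 and 379.7 CPM in wild type. LHCB1.4 and LHCB1.5 summed were higher in uvr8 by 0.75 under +UVB and 0.86 under +FR+UVB, short of 2-fold. On plain library sizes the median of all genes moved by 0.24 under +UVB and 0.29 under +FR+UVB towards uvr8, with 2507 genes called up and 770 down in place of 1482 and 1236 under +UVB, and 2481 and 812 in place of 1340 and 1264 under +FR+UVB. Without the fold minimum 28 members were then higher and 2 lower in uvr8 under +UVB, with a median of 0.59, and 26 higher and 2 lower under +FR+UVB, with a median of 0.50.

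The difference between the genotypes' responses was tested directly. The +UVB effect in uvr8 minus that in wild type was called (adjusted p under 0.05, no fold minimum) in 13 members upwards and 2 downwards, where 13.5% and 16.3% of all genes were called, and the median was 0.47. It was 2.48 ± 0.47 for LHCB1.4 (adjusted p = 2.0e-04), 1.54 ± 0.23 for LHCB4.2 (adjusted p = 7.2e-06) and -2.58 ± 0.16 for LHCB7 (adjusted p = 2.3e-13). LHCA5 was the other member called downwards (-0.70 ± 0.14). For the UV-B effect under low R:FR the same difference was called in 11 members upwards and 3 downwards (16.4% and 17% of all genes), with a median of 0.34. The 11 were also among the 13, and the 3 downward were LHCB7 (-2.58 ± 0.15), LHCB4.3 (-0.99 ± 0.32) and LHCA5 (-0.71 ± 0.14). Of the PSA genes PSAD2 was called in both and PSAH2 in the first. LHCB1.1 was called alone but not as the sum of LHCB1.1, LHCB1.2 and LHCB1.3 (0.47, adjusted p = 0.15). The +FR effect differed between uvr8 and wild type in 0 members and 0% of all genes by edgeR, with 0 members at an unadjusted p under 0.05 and 0 by DESeq2.

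**Figure D4:**
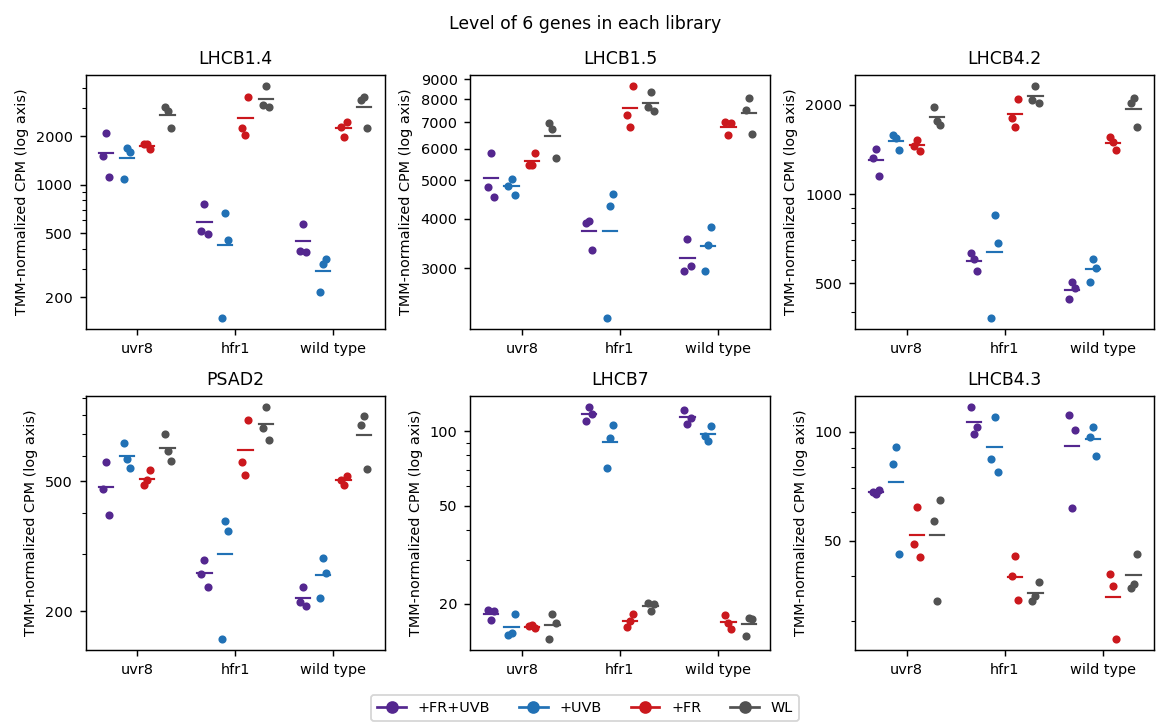
Level of 6 genes in each of the 36 libraries (TMM-scaled CPM, log axis) by genotype and light regime; points are libraries and bars are group means. In uvr8 the +UVB libraries of LHCB7 lie at 15 to 18.3 CPM, against 91.4 to 105 CPM in wild type.

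In hfr1 seedlings the members responded to UV-B in the same directions. Under +UVB against WL 14 fell and 2 rose (6.83% and 7.96% of all genes), or 28 and 3 without the fold minimum (24.9% and 24.9%), with a median of -0.85. LHCB1.4 was at 149, 664 and 452 CPM under +UVB, against 3146, 4102 and 3053 CPM under WL (-3.03 ± 0.35). LHCB4.2 was at 383, 849.6 and 683 CPM, against 2073, 2310.0 and 2030.3 CPM (-1.74 ± 0.16), and LHCB7 at 71, 94.3 and 105 CPM, against 20.3, 18.8 and 20.02 CPM (2.2 ± 0.11). The first +UVB library, the one that stood apart, was the lowest in each of the 3. Without it 5 members fell and 2 rose, all of them among the 16, and the median was -0.59, with 27 lower and 3 higher without the fold minimum. The shares of all genes above are those of the fit with all libraries, and none is given for the fit without that library. Then LHCB1.4 changed by -2.61, LHCB4.2 by -1.47, LHCB2.2 by -1.08, PSAD2 by -1.02, LHCB2.3 by -1.0, LHCB7 by 2.35 and LHCB4.3 by 1.39 on the log2 scale.

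Under low R:FR, UV-B lowered 7 members and raised 2 (6.66% and 6.61% of all genes), or 20 and 3 without the fold minimum (24.9% and 25%), with a median of -0.43. On plain library sizes the last counts were 28 and 3 and the median was -0.68. LHCB1.4 was at 512, 761 and 497 CPM under +FR+UVB, against 2240.2, 2045 and 3495 CPM under +FR (-2.14 ± 0.34). LHCB7 was at 110.4, 125 and 118 CPM, against 16.1, 17.1 and 18.2 CPM (2.78 ± 0.11), and LHCB4.3 rose by 1.41. Low R:FR alone gave 0 called members by edgeR (2.8% of all genes), 1 with an unadjusted p under 0.05 and 0 by DESeq2, with a median of -0.16 and 3 members wholly below WL (15.2% of all genes). In +FR+UVB against +UVB edgeR called 0 at more than 2-fold (1.47% of all genes), 4 had an unadjusted p under 0.05 and DESeq2 called 0. Without the fold minimum LHCB7 passed (0.38 ± 0.10, adjusted p = 0.021; 4.01% of all genes were higher), but without replicate 1 under +UVB it did not, and 0 members passed there (smallest adjusted p = 0.054).

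No member separated hfr1 from wild type at the thresholds used. edgeR and DESeq2 each called 0 members under WL (0.0908% of all genes by edgeR; 1 with an unadjusted p under 0.05), under +FR (0.086%; 3), under +UVB (0.0717%; 0) and under +FR+UVB (0.712%; 2). Under +FR all 33 estimates were positive, between 0.02 and 0.58 with a median of 0.21, and in 19 members every hfr1 library was above every wild-type library, as in 6.77% of all genes. LHCB1.4 under +FR was at 2240.2, 2045 and 3495 CPM in hfr1, against 2295, 1992 and 2444 CPM in wild type, and these overlapped. The members took 8.86, 8.54 and 10.6% of counts in hfr1 under +FR, against 7.93, 7.94 and 8.10% in wild type. By edgeR the responses of hfr1 and wild type differed in 0 members for +UVB against WL (0% of all genes; 1 with an unadjusted p under 0.05), for +FR against WL (0%; 0) and for +FR+UVB against +FR (0.0669%; 0), and in 0 by DESeq2. The UV-B effect under +FR minus that under WL was tested by the adjusted p alone, with no fold minimum. In hfr1 edgeR called 0 members (0.927% of all genes), 5 had an unadjusted p under 0.05, DESeq2 called 1, and the median was 0.33. In uvr8 edgeR called 0 members (0% of all genes), 0 had an unadjusted p under 0.05, DESeq2 called 0, and the median was 0.27. Without replicate 1 of hfr1 under +UVB edgeR likewise passed 0 members in hfr1 against wild type under +UVB (median 0.26, against 0.01 with it), in the difference of the +UVB effect (0.18, against -0.07) and in the UV-B effect under +FR minus that under WL (0.10).

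Other genes of the photosynthetic apparatus moved in both directions under UV-B. By the adjusted p alone, with 24.7% of all genes lower and 24.5% higher in +UVB against WL of wild type, 2 of 13 genes for photosystem II subunits were higher and 5 lower. PSBS, which senses lumen pH for energy dissipation, rose by 1.54 and PSB28, an assembly factor, by 1.47. Of 11 genes for electron carriers and the ATP synthase 1 was higher, the ferredoxin gene FD1 (1.71), and 1 lower, the plastocyanin gene PETE1 (-1.39). Of 14 Calvin cycle genes 4 were higher and 0 lower, FBA1 (0.60) and RBCS1B (0.50) most. In +FR+UVB against +FR all 14 were higher, and the share of all genes higher by that rule is given above with that comparison. Of 13 chlorophyll synthesis genes 5 were higher and 4 lower, with the protochlorophyllide oxidoreductase genes PORA (-2.44) and PORB (-1.31) lowest. Of 5 regulators of these genes, CGA1 (2.52) and GNC (0.94), GATA factors, and GUN1 (0.35) were higher, and GLK1 (-0.70) and GLK2 (-0.29), known activators of LHC genes, lower. In uvr8 edgeR passed 0 of the 56 genes of these 5 lists in +UVB against WL, with 9 at an unadjusted p under 0.05. Of all 20926 genes, 151 were called up and 64 down at more than 2-fold in that comparison. That rule is stricter than the adjusted p alone, which was used for the 56. The share of all genes by the adjusted p alone is not given here, so the 0 has no like background. The +UVB effect in uvr8 minus that in wild type was -1.56 for PSBS, -1.48 for PSB28, -1.44 for FD1, 1.25 for PETE1, 2.29 for PORA, -1.83 for CGA1 and 0.88 for GLK1, each past the adjusted p.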

How the data were processed

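Total RNA from pools of 30 seedlings was sequenced as single reads of 100 bases from stranded libraries. The authors deposited a table of raw gene counts and a table of normalised values, here treated as signal and found equal to TMM-scaled CPM within 0.0283%. The submitters' processing notes name FastQC 0.10.2, TopHat2 2.0.13, HTSeq 0.6.1, edgeR 3.4.2 and TAIR10; the treatment of reads with several matches was not given in the sources used here. How reads shared by near-identical copies were counted is thus unknown, and its part in the results was not tested.

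Here the deposited counts of the 20926 genes in the normalised table were fitted with edgeR 4.0.16 (R 4.3.3): TMM factors (0.860 to 1.13), 1 coefficient for each of 12 groups, quasi-likelihood F-test, Benjamini-Hochberg adjustment over all genes tested. A gene was called at adjusted p under 0.05 and a fold over 2. Tests of a difference between light effects, across genotypes or across light backgrounds within a genotype, used the adjusted p alone. SE is that of the log2 fold change. Alternatives were DESeq2 1.42.0, plain library sizes, no filter, separate fits, summed copies, other thresholds, a replicate block and each library left out. The fitting was tested on simulated data. Coordinates, exon lengths and promoters came from RefSeq's TAIR10.1 annotation, read with Biopython 1.88 in Python 3.11.15; all 33 identifiers matched.

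The members and gene lists were chosen with earlier results of these data known. Values per library are given for at most 3 called genes in each direction of a comparison and for the most abundant gene of each family; those of LHCB1.5, LHCA5 and a few others were added after their values were seen. From other lists the genes with the largest changes past the adjusted p are named. Same-numbered libraries deviated together over the genes tested (r over 0.1 in all 3 pairs) in +UVB against WL of wild type (0.24, 0.32 and 0.41) and in hfr1 against wild type under +FR (0.30, 0.28 and 0.42), and in no other simple comparison of 20.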

Additional observations from a re-analysis of the deposited data

Results flagged for a closer look

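The response to UV-B differed between uvr8 and wild type in 15 members for +UVB against WL and in 14 for +FR+UVB against +FR, by edgeR's test of the difference itself (uvr8 minus wild type, adjusted p under 0.05, 3 libraries in each group). For +UVB against WL the log2 differences were -2.58 in LHCB7, 2.48 in LHCB1.4, 1.54 in LHCB4.2, 1.35 in PSAD2, 1.32 in LHCB2.3, 1.3 in LHCB2.2, 1.11 in LHCB3, 1.01 in LHCA4, 0.87 in LHCB2.1, 0.79 in LHCB6, 0.78 in LHCB1.1, 0.77 in LHCA1, 0.74 in PSAH2, -0.70 in LHCA5 and 0.69 in LHCB1.5. For +FR+UVB against +FR they were -2.58 in LHCB7, 2.18 in LHCB1.4, 1.47 in LHCB4.2, 1.2 in LHCB2.2, 1.11 in PSAD2, -0.99 in LHCB4.3, 0.96 in LHCB1.5, 0.91 in LHCB2.1, 0.90 in LHCA4, 0.85 in LHCB3, 0.75 in LHCB1.1, -0.71 in LHCA5, 0.70 in LHCA1 and 0.60 in LHCB6. Under both backgrounds LHCB7 had the largest difference. The differences of LHCB4.3 under low R:FR and of LHCB6 there were lost under 1 alternative each that kept all libraries (plain library sizes, and no filter on low counts).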

How the results depend on the processing

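Of 410 alternatives to the 29 counts of called members, 391 stayed within 1.5 times, and of 1161 alternatives to 85 single-gene results 1068 kept their call, 93 lost it and 0 changed direction. Dropping the fold minimum gave 31 (+UVB against WL), 1 (+FR against WL) and 19 (+FR+UVB against +FR) members in wild type, 31, 23 (+FR+UVB against +FR) and 1 (+FR+UVB against +UVB) in hfr1, and 16 and 13 for uvr8 against wild type under +UVB and +FR+UVB. Adding it to the differences of uvr8 from wild type left 8 (+UVB against WL) and 5 (+FR+UVB against +FR). On plain library sizes those differences numbered 26 and 25, and 11 wild-type members were called in +FR+UVB against +FR. Over all genes, calls on plain library sizes were 1140 up and 3063 down in place of 1731 and 1785 in wild type and 927 and 2420 in place of 1383 and 1394 in hfr1 for +FR+UVB against +FR, 1423 and 1746 in place of 1666 and 1429 in hfr1 for +UVB against WL, and, past 2-fold, 1775 and 672 in place of 1030 and 1042 and 2181 and 787 in place of 1210 and 1214 for the differences of uvr8. The all-gene median moved by -0.26 in hfr1 for +FR+UVB against +FR, by -0.11 for +FR+UVB against +UVB, and by 0.22 and 0.26 for the differences of uvr8. The cause was not tested.

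Leaving out each library in turn gave 11 to 16 members for +UVB against WL and 7 to 8 for +FR+UVB against +FR in wild type, 7 to 19 and 6 to 10 in hfr1, 4 to 6 and 3 to 5 for uvr8 against wild type under +UVB and +FR+UVB, and 12 to 18 and 11 to 15 for the differences of uvr8. The lowest count in hfr1 was that without replicate 1 under +UVB, and leaving out replicate 1 under WL with it, chosen after seeing the data, also gave 7. For the UV-B effect under +FR minus that under WL in hfr1 the range was 0 to 2 (2 without replicate 3 under +UVB), with 1 by DESeq2 and 1 with the replicate block. With the replicate block 13 wild-type members were called in +UVB against WL, as without it, and 0 in hfr1 against wild type under +FR. The block changed no other count by over 1.5 times. Depth was at least 9749710 counts in every library, and the precision rests on 3 libraries a group.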

Other observations

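Genes of other photosynthetic functions were followed under low R:FR as well. In +FR against WL of wild type, 9 of 13 chlorophyll synthesis genes were lower by the adjusted p, where 4.15% of all genes were, HEMA1 (-0.78), which encodes glutamyl-tRNA reductase, and CHLM (-0.51), a methyltransferase of the magnesium branch, most. In the same comparison 1 of 13 photosystem II genes and 2 of 11 electron transport and ATP synthase genes were lower, and edgeR passed 0 of 14 Calvin cycle genes and 0 of 5 regulators (8 and 2 at an unadjusted p under 0.05).

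When UV-B was added to low R:FR in wild type, chlorophyll synthesis genes moved both ways, 7 higher and 3 lower of 13, with HEMA1 at 1.48 and PORA at -3.11. By the adjusted p, the rule of every count in this paragraph, 26.9% of all genes were higher and 27.5% lower. All 14 Calvin cycle genes were higher, RBCS1B by 1.04 and FBA1 by 1.02, and 7 of 11 electron transport and ATP synthase genes were higher, FD1 by 1.89, with PETE1 lower (-1.3). Of the regulators CGA1 rose by 2.82 and GNC by 1.11. Among 13 photosystem II genes 3 were higher and 1 lower, with PSBS at 1.78 and PSB28 at 1.83. On plain library sizes the median of all genes in this comparison moved by -0.27, which bears on the smaller of these rises.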
